A study of Homo sapiens with 22 samples.

Results

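The 50 genes described here encode the cytosolic factors that start, extend and end protein synthesis on the ribosome, together with their brakes. They were chosen by name from the initiation (EIF), elongation (EEF), poly(A) binding and termination factor families, not from the peaks. Earlier results of these data were known when they were chosen. They make up 50 of the 20136 protein-coding genes of the annotation. Chromatin immunoprecipitation with sequencing (ChIP-seq) of N-MYC and of WDR5 was examined at their promoters in 16 libraries from a pair of N-MYC amplified neuroblastoma lines. CHP-134 cells received DMSO or a compound for 4 h, with 3 libraries for each antibody and treatment. IMR-32 cells were untreated, with 2 libraries for each antibody. Each library pooled 3 immunoprecipitations, N-MYC was recovered with a custom serum and WDR5 with a commercial antibody, and both lines express N-MYC from an amplified gene that nothing here switched off. The labels name the compound in 3 ways, so it is called the compound here, and they give the DMSO content in 2 ways. The CHP-134 libraries were read as single ends and the IMR-32 libraries as paired ends on another instrument, so line and sequencing run cannot be told apart.

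N-MYC is a transcription factor that binds DNA as a partner of MAX, preferring the E-box CACGTG near gene starts. WDR5 is a scaffold protein best known from histone methyltransferase complexes, and it also contacts MYC proteins directly through a short conserved motif. Protein synthesis genes are a classic group of MYC targets. Initiation begins with EIF2, which carries the initiator tRNA, and with the EIF3 scaffold on the small subunit. The EIF4 factors bind the mRNA cap and unwind the leader, and the EEF factors then deliver tRNAs and move the ribosome.

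A gene's value in a library was taken from the peak with the highest fold, any part of which lay within 1 kb of a transcription start site (TSS). The fold is the enrichment that the peak caller gave, and it was turned into a percentile among all peaks of the same library, so that 100 marks the strongest peaks of a library. A gene was counted as having a protein in a group when at least 2 libraries held such a peak, which in IMR-32 means both. Peaks per list ranged from 9125 to 15286 for N-MYC and from 1671 to 4891 for WDR5 under DMSO. They ranged from 2964 to 12313 and from 15 to 5973 under the compound, and from 5242 to 8286 and from 1258 to 1693 in IMR-32. The second compound library stood apart for both antibodies, with 2964 N-MYC peaks and 15 WDR5 peaks. The lists give no read counts, so depth is unknown and an absent peak says only that none was listed.

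Sequences at a choice of promoters are shown first. The N-MYC set was picked from members with an E-box near the summit, and not all of them are among the strongest. EIF5A, one of the 5 highest in N-MYC, had no E-box within 100 bases of its summit. The first set holds the E-boxes nearest to the N-MYC summits of CHP-134 cells, chosen to show 3 of the strongest N-MYC members (EIF4H, EIF4G1 and EEF1B2), a further member with both proteins (EIF4E) and 4 members without WDR5 in 2 libraries. Each is 30 bases of GRCh37, the same build as hg19, on the strand of the gene, and the capitals mark the E-box.
EIF4H, chr7:73588475-73588504, plus strand: acgccgccgcacCACGTGggctgcagagcg
EIF4G1, chr3:184032315-184032344, plus strand: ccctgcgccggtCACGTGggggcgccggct
EEF1B2, chr2:207024829-207024858, plus strand: cggggccggggcCACGTGgcgcagcgtgtc
EIF4A1, chr17:7475837-7475866, plus strand: ctgtcgcctccgCACGTGtgagagtgcagg
EIF4E, chr4:99850339-99850368, minus strand: ggacatatccgtCACGTGgccagaagctgg
EIF3A, chr10:120840325-120840354, minus strand: ccgcggggaggtCACGTGgctccttccttt
EIF3K, chr19:39109713-39109742, plus strand: cgaggaagaagtCACGTGgcagccggaaag
EEF2K, chr16:22217528-22217557, plus strand: cctgggggcggcCACGTGagcgccacgccg

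The EEF1B2 E-box lay in intron 1 of the canonical transcript, and the others lay outside their canonical transcripts. The centre of the E-box was 4.5 bases from the summit at EIF4G1 and EEF1B2, 13.5 bases at EIF4A1 and 32.5 bases at EIF4H.

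The second set holds the 30 bases around the WDR5 summit at the 5 members with the strongest WDR5 peaks, with no capitals because none of these windows holds CACGTG.
EIF4G3, chr1:21503322-21503351, minus strand: tgttggatgctctgctcgttgagtgaagaa
EIF3D, chr22:36925078-36925107, minus strand: cataggttcctgcggccctccggagccggt
EEF1G, chr11:62341208-62341237, minus strand: cagtcggcgccagaggagttctgaggttga
EEF2, chr19:3985270-3985299, minus strand: gctggggccccccgtgccaggaggagacgt
EIF4G1, chr3:184032634-184032663, plus strand: ggcccggccgggcctggctgctgggtgggg

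The EIF4G3 summit lay in the untranslated part of exon 1, and the summits at EIF3D, EEF1G, EEF2 and EIF4G1 lay in intron 1.

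N-MYC was listed at most of these genes in CHP-134 cells treated with DMSO. It was present at 43 of the 50 members (86%), beside 37.6% of all protein-coding genes. A further list of 48 genes of the pathway held 32 with N-MYC. It includes mitochondrial factors, EIF2 kinases, recycling factors and relatives of the members such as EIF5A2, EIF4E3, PABPC3 and GSPT2. The peaks at the members were also strong. The median percentile over members with a peak was 83.9 ± 1.43 (SD, n = 3 libraries), beside 57.3 ± 2.61 over all genes with a peak.

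WDR5 was listed at fewer members. It was present at 15 of the 50 (30%), beside 8.24% of all genes, and all 15 also had N-MYC. The share of all genes with both proteins was 7.51%, and the further pathway list held 6 genes with WDR5 and 5 with both. Among genes with N-MYC, 34.9% of the members and 20.0% of all genes also had WDR5. In the opposite direction, N-MYC was present at 15 of 15 members with WDR5 and at 91.1% of all genes with WDR5. The median WDR5 percentile of the members was 73.2 ± 3.76 (SD, n = 3), beside 53.5 ± 1.09 over all genes.

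**Figure D1:**
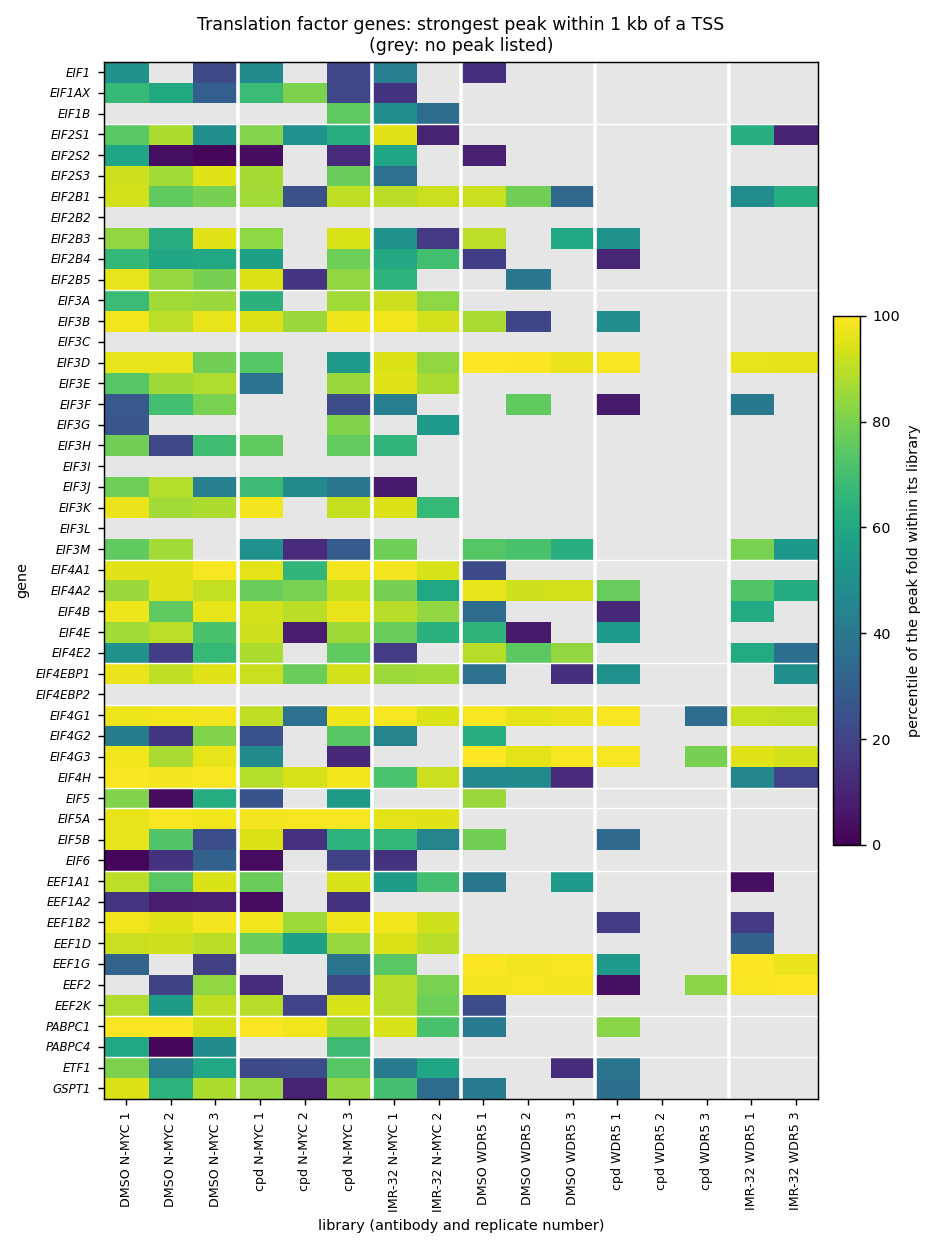
Each row is a member, ordered by role, and each column is a library, with N-MYC libraries on the left and WDR5 libraries on the right. The colour is the percentile of the fold of the strongest peak within 1 kb of a TSS among all peaks of that library, and grey means that no peak was listed. N-MYC fills most rows under DMSO, whereas WDR5 is listed in all 3 DMSO libraries at 10 members, and the second compound library for WDR5 holds no member.

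By role, the cap binding and scanning factors stood at the upper end for both proteins. All 9 of them had N-MYC and 6 had WDR5 in CHP-134 cells with DMSO. All 7 elongation genes had N-MYC and 3 had WDR5 (EEF1A1, EEF1G and EEF2). Among EIF2 and its exchange factor EIF2B, 7 of 8 had N-MYC and 2 had WDR5 (EIF2B1 and EIF2B3). Of the 13 EIF3 subunits, 9 had N-MYC and 3 had WDR5 (EIF3B, EIF3D and EIF3M). The 4 factors of start codon choice held 3 with N-MYC, and the 3 late factors EIF5A, EIF5B and EIF6 all had N-MYC, as did both poly(A) binding and both termination genes. None of these 11 genes had WDR5 in 2 libraries. EIF4EBP1, a brake on the cap binder EIF4E, had both proteins, whereas EIF4EBP2, its relative, had no peak of either.

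The 5 members with the highest mean N-MYC percentile were EIF4H, EIF4G1, EIF5A, PABPC1 and EEF1B2. EIF4H, a helper of the helicase EIF4A, stood at 99.1, 98.3 and 99.1 in the 3 DMSO libraries. EIF4G1, the scaffold of the cap complex, stood at 97.5, 97.8 and 98.2. EIF5A, which helps the ribosome through difficult peptide bonds, stood at 96.7, 99.0 and 97.7. These 3 promoters were therefore close to the top of every list. PABPC1, the main cytosolic poly(A) binding protein, stood at 99.3, 99.4 and 93.4, and EEF1B2, part of the exchange factor for EEF1A, at 98.0, 95.1 and 98.4. Every value of EIF4H was above every value of EIF4G1, and the values of all other pairs among these 5 genes overlapped. Of the 5, only EIF4H and EIF4G1 had WDR5 in at least 2 DMSO libraries. EIF5A had no WDR5 peak in any of the libraries of either line.

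Of these 5, EIF4G1 was also among the members with the strongest WDR5 peaks, and the others with strong WDR5 were different genes. EIF4G3, a second form of the cap scaffold, stood at 99.9, 96.1 and 98.6 for WDR5. EEF1G, the structural subunit of the EEF1 exchange complex, stood at 99.2, 98.2 and 99.2. EEF2, the translocase that moves the ribosome, stood at 98.3, 98.8 and 98.3. All of these values lay in the top 4% of their lists. EIF3D, an EIF3 subunit that can itself bind the cap, stood at 99.8, 99.3 and 97.2, and EIF4G1 at 98.7, 96.0 and 97.0. EIF4A2, a helicase of the cap complex, stood at 96.4, 92.6 and 93.0. The folds at the 5 strongest genes were between 7.16 and 16.8 times the median fold of their list. At EIF4A2 the fold was 2.65, 3.10 and 3.55 times the median. At the other 4 members with WDR5 in all 3 libraries it was between 0.739 and 1.67 times the median, near a typical peak.

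These 4 ranked lower than the strongest 5 in all 3 libraries. EIF4E2, a cap binding relative of EIF4E, stood at 89.4, 74.7 and 83.9. EIF3M, an EIF3 subunit, stood at 73.8, 71.3 and 63.1, and EIF2B1, a subunit of the EIF2 exchange factor, at 92.1, 78.2 and 33.6. EIF4H, first in N-MYC, stood at 46.8, 47.4 and 12.4. The 5 members with WDR5 in exactly 2 DMSO libraries were EIF2B3 (90.2 and 59.8), EIF3B (87.3 and 21.0), EIF4E (64.9 and 7.17), EIF4EBP1 (37.5 and 13.5) and EEF1A1 (39.9 and 54.0). A WDR5 peak in 1 DMSO library alone was listed for 14 further members, a pattern not counted over all genes. Most of these peaks were in DMSO library 1, whose WDR5 list held 4891 peaks against 1758 and 1671 in libraries 2 and 3.

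The rank of N-MYC and that of WDR5 did not go together at all of the strong WDR5 genes. At EEF1G, N-MYC was listed at 31.8 and 19.1 in replicates 1 and 3 and not in replicate 2. At EEF2, it was listed at 19.5 and 83.4 in replicates 2 and 3 and not in replicate 1. At EIF4G3, by contrast, N-MYC stood at 97.7, 87.2 and 96.1, and at EIF3D at 96.3, 96.6 and 78.4. EIF4A2 had N-MYC at 85.0, 95.2 and 90.8. The group with N-MYC in all 3 DMSO libraries and WDR5 in none of the 3 held 14 members, among them EIF5A, EEF1B2, EEF1D, EIF3K and EIF2S3. This pattern was not counted over all genes, so it cannot be called a trait of the members. Of all genes with N-MYC, 20.0% had WDR5 in at least 2 libraries, which is another rule.

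**Figure D2:**
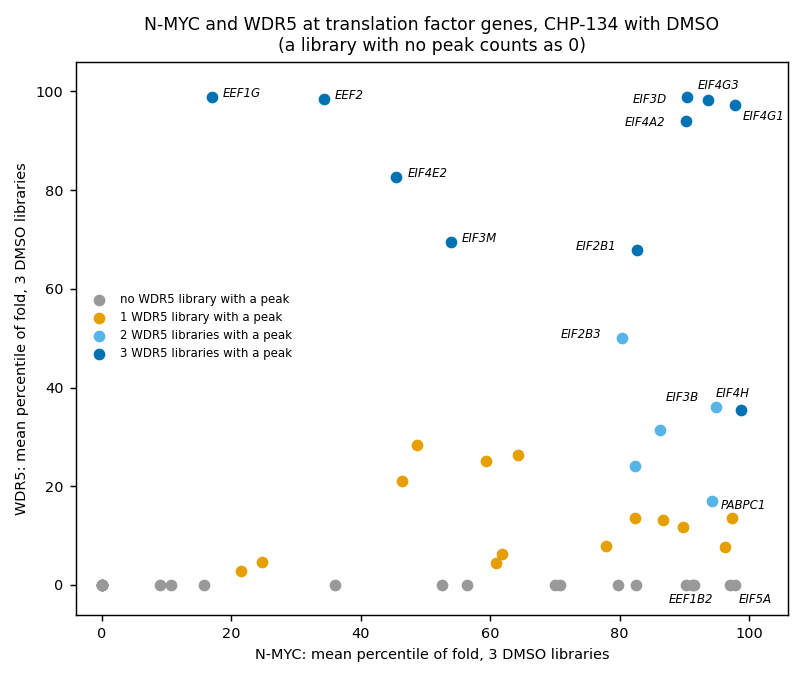
Each point is a member, with the mean percentile of N-MYC over the 3 DMSO libraries on the horizontal axis and that of WDR5 on the vertical axis, a library without a peak counting as 0. EIF4G3, EIF3D, EIF4G1 and EIF4A2 sit at the upper right, EEF1G and EEF2 at the upper left, and EIF5A and EEF1B2 at the lower right.

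No peak of either protein was listed in any library at EIF2B2, EIF3C, EIF3I, EIF3L and EIF4EBP2. EIF3C has a near-identical copy, EIF3CL, and reads shared between them may have been lost in mapping, so its value is uncertain. EIF3G had N-MYC in 1 DMSO library, and EIF1B in none. At 11 members another protein-coding gene starts beside the same promoter, including EIF2S1 with ATP6V1D, EIF2B1 with GTF2H3, EIF3K with MAP4K1, EIF4E2 with TIGD1 and EEF1B2 with NDUFS1, and the peak cannot be assigned to either gene of such a pair. At EIF3E and EIF3H the strongest N-MYC peak was mostly at a distant alternative start, 194889 and 10985 bases from the canonical one in DMSO replicate 1. These starts lie beside EMC2 and UTP23. EIF3E also had N-MYC at its canonical start in all 3 DMSO libraries (30.5, 51.3 and 82.4), whereas EIF3H had it there in 1 of them (70.6).

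The median position of the summits differed between the proteins, but the medians cover different members. In the 3 DMSO libraries 43, 41 and 42 members had an N-MYC peak, and 26, 14 and 14 had a WDR5 peak. Distances were counted from the nearest TSS of the gene, with positive values downstream, and a gene with several starts can be counted from different ones. The median N-MYC summit of the members with a peak was at -75, -60 and -51 bases in the 3 DMSO libraries, beside -31, -33 and -34 over all genes. The median WDR5 summit was at 120, 97.5 and 132 bases, beside -2, 6 and -13 over all genes. In IMR-32 the members' WDR5 summits had medians of 132.5 and 154.5, beside 33 and 31. Their N-MYC summits there had medians of -1 and -70, beside -48 and -52.5. The median WDR5 summit of the members was thus downstream of the start in the DMSO and IMR-32 libraries alike, whereas the median N-MYC summit under DMSO was upstream.

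The distance varied from gene to gene. At EIF4G3, N-MYC summits were at 20, -19 and -4 bases and WDR5 summits at 4, -1 and 4, so that the proteins shared a position. At EIF4A2, N-MYC was at -255, -230 and -237 and WDR5 at -243, -272 and -244. At EEF1G, N-MYC was at 84 and 226 and WDR5 at 140, 142 and 141. At EEF2, N-MYC was at 210 and 132 and WDR5 at 145, 141 and 177. The EIF3D WDR5 summits lay 26, 52 and 60 bases from the mean N-MYC summit. At EIF4G1, N-MYC was at 3, 2 and 4 and WDR5 at 254, 254 and 217. At EIF4H, N-MYC was at -229, -167 and -188 and WDR5 at 355, 136 and 158. The peaks themselves were broad enough to overlap: at EIF4G3, EIF4A2, EIF4G1 and EIF4H every WDR5 peak overlapped the N-MYC peak of all 3 DMSO libraries by at least 1 base. The median gap between the WDR5 summit and the mean N-MYC summit was 124, 119 and 109 bases over the members, beside 163, 140 and 148 over all genes with both. In the 2 IMR-32 libraries it was 142.5 and 345 bases over the members, beside 188 and 174.5 over all genes, so that the members' gap was the larger in the second of them.

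**Figure D3:**
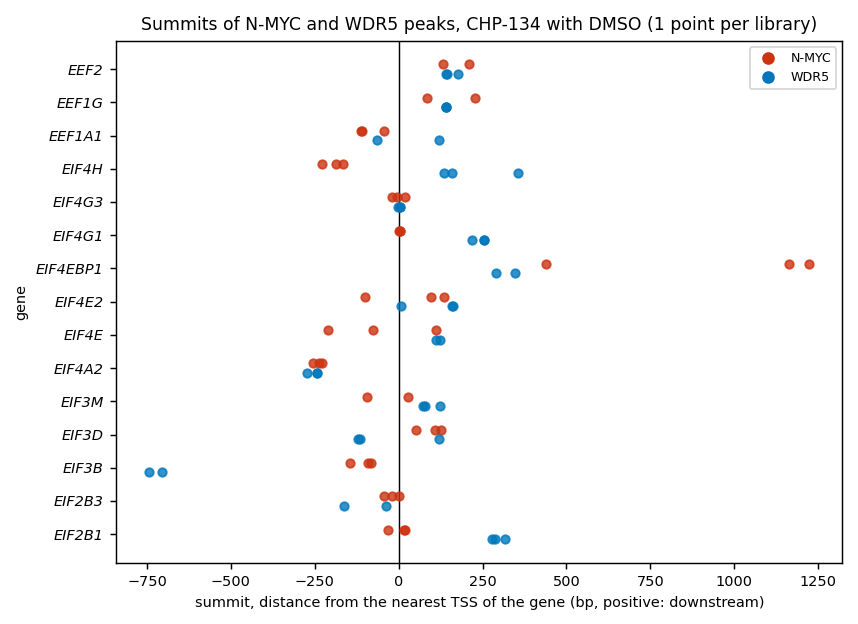
Each point is the summit of the strongest peak of a member in 1 DMSO library of CHP-134 cells, as the distance in bases from the nearest TSS, for the 15 members with both proteins. EIF4G3, EIF4A2, EEF1G and EEF2 have overlapping N-MYC and WDR5 summits, whereas EIF4G1, EIF4H and EIF2B1 have WDR5 downstream of N-MYC and EIF3B has it upstream.

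E-boxes were looked for as CACGTG, which reads the same on both strands, within 100 bases of the N-MYC summit that had the highest significance for the gene. They were found at 13 of 43 members (30.2%) and at 27.3% of 7572 genes with N-MYC under DMSO. In IMR-32, 12 of 27 members (44.4%) and 42.0% of 3066 genes held it. With 50 bases on each side the shares under DMSO were 30.2% of members and 20.7% of genes, and with 250 bases they were 46.5% and 34.1%. In IMR-32, 10 of 27 members and 34.9% of genes held it with 50 bases, and 14 of 27 members and 47.1% of genes with 250 bases. The gap between members and genes under DMSO thus varied with the width of the window. In windows of the same width around the canonical TSS, whatever was bound there, CACGTG was in 7 of the 50 members (14%) and in 5.68% of 19845 genes. The variant CACGCG, searched on both strands, was within 100 bases of the N-MYC summit at 9 of 43 members (20.9%) and at 28.9% of genes.

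The E-box was also counted in members with and without WDR5, and the difference between them was not tested. Of the 15 members with both proteins, 3 held it at the N-MYC summit (EIF4E, EIF4G1 and EIF4H), beside 38.6% of all genes with both. Of the 28 members with N-MYC and no WDR5 in 2 libraries, 10 held it (35.7%), beside 24.5% of genes. These 10 were EIF2B5, EIF3A, EIF3E, EIF3F, EIF3K, EIF4A1, EEF1B2, EEF1D, EEF2K and PABPC1. The EIF3E E-box lay at its distant start beside EMC2, and the EIF2B5 summit was at -1174 bases from the TSS. EIF4G3, EIF3D, EEF1G and EEF2, with WDR5 among the strongest, had none within 100 bases of either summit in CHP-134 cells. At the WDR5 summit the E-box was found at 3 of 15 members (EIF2B3, EIF3B and EIF4G1) and 21.9% of genes under DMSO, and at 0 of 11 members and 13.6% of genes in IMR-32.

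IMR-32 cells held N-MYC at 27 members (54%), beside 15.2% of all genes, and WDR5 at 11 (22%), beside 4.75%. Both proteins were at 7 members, beside 2.55% of genes. The further pathway list of 48 held 15, 5 and 2 such genes. Of the 27 members with N-MYC in IMR-32, 26 (96.3%) also had it in CHP-134 cells with DMSO, and of all genes 95.4% did. Of the 43 members with N-MYC in CHP-134 cells, 60.5% had it in IMR-32, beside 38.6% of all genes. The gene with N-MYC in IMR-32 and not in CHP-134 with DMSO was EIF1B, a close relative of the start codon factor EIF1.

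WDR5 was shared between the lines at 10 members, which were the same 10 that had it in all 3 DMSO libraries. They were EIF2B1, EIF3D, EIF3M, EIF4A2, EIF4E2, EIF4G1, EIF4G3, EIF4H, EEF1G and EEF2. These are 90.9% of the members with WDR5 in IMR-32 and 66.7% of those with WDR5 in CHP-134, beside 71.5% and 41.2% of all genes. EIF2S1, the regulated subunit of EIF2, had WDR5 in IMR-32 alone, at 62.8 and 10.0. The strongest WDR5 members were strong in both lines. In the 2 IMR-32 libraries, EEF1G stood at 99.6 and 97.1, EEF2 at 99.1 and 99.8, EIF3D at 96.9 and 95.9, EIF4G3 at 95.6 and 93.4 and EIF4G1 at 91.7 and 90.9. EIF4A2 stood at 73.0 and 61.4, EIF3M at 79.8 and 53.5, EIF2B1 at 48.3 and 61.9, EIF4E2 at 61.2 and 36.4 and EIF4H at 45.8 and 20.0. The gap between the first 5 and the other 5 was thus present in IMR-32 too.

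N-MYC was not listed in IMR-32 at some of the promoters with the strongest WDR5. EIF4G3 had no N-MYC peak in either IMR-32 library, although WDR5 was among the strongest of the list. EEF1G had it in 1 of the 2 (74.4), as did EIF3M (77.9) and EIF4E2 (17.4). These 4 were the members with WDR5 in both IMR-32 libraries and N-MYC in fewer than both. EEF2 had N-MYC at 89.2 and 79.8, values that overlapped those of CHP-134 cells with DMSO. EIF3D stood at 94.8 and 83.7 and EIF4G1 at 98.8 and 94.3. Among the 7 members with both proteins in IMR-32, the WDR5 peaks of EIF4H and EIF2S1 overlapped no N-MYC peak, whereas those of EIF2B1, EIF3D, EIF4A2, EIF4G1 and EEF2 overlapped the N-MYC peak of both libraries.

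The ChIP-QPCR product of EIF4G3 used in the study, chr1:21503214-21503332, lies in the untranslated part of exon 1 and is 119 bases long. A WDR5 peak overlapped it in every DMSO and IMR-32 library and in compound libraries 1 and 3. An N-MYC peak overlapped it in the 3 DMSO libraries and in compound libraries 1 and 3, and in neither IMR-32 library. By ChIP-QPCR in IMR-32, with another N-MYC antibody, the study reports both proteins together at conserved WDR5-bound sites. The lack of a listed peak thus does not mean that N-MYC was absent there.

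Between the lines, groups of libraries were called different where their percentiles did not overlap, a missing peak counting as 0. With 3 libraries against 2, the smallest p of the two-sided exact permutation test is 0.1, so no gene could pass 0.05. Of 45 members with an N-MYC peak in at least 1 of the libraries, 15 were lower in IMR-32 and 1 (EIF1B) was higher. Over all genes, 25.3% were lower and 3% were higher. The median difference was -9.25 percentile points over the members and -15.0 over all genes. Among equal numbers of the strongest peaks of each list, 5 members were lower and 8 higher, beside 9.23% and 10.9% of genes, so that the split turned around when the lists were cut to the same length. The 15 lower members included the scaffold EIF4G3, which stood at 93.7 ± 5.69 (SD, n = 3) in CHP-134 cells and had no peak in IMR-32, and also EIF4A2, EIF4E2, EIF4H, EIF5A, EEF1A1, EEF1A2 and PABPC4. EIF1B stood at 49.6 and 35.2 in IMR-32 and had no peak under DMSO, although in CHP-134 cells compound library 3 listed N-MYC there at 75.1.

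For WDR5, 5 of 32 members were lower in IMR-32 (EIF3D, EIF4A2, EIF4E2, EIF4G1 and EIF4G3) and 2 were higher (EIF2S1 and EEF2). Over all genes, 7.46% were lower and 5.16% higher. With the log2 fold over the list median in place of the percentile, 18 members were lower and 4 higher, beside 64.7% and 9.63% of genes. The differences at EIF3D and EIF4G3 were -2.41 and -3.67 percentile points, and on that log2 scale they were 0.82 and 0.41, in the other direction. At EIF4A2 the difference was -26.8 points, and at EIF4E2 it was -33.8.

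In CHP-134 cells, N-MYC was present under the compound at 40 members (80%), beside 29.8% of all genes and 28 of the 48 further pathway genes. These 40 were 93.0% of the 43 with N-MYC under DMSO, and 75.9% of all genes with N-MYC under DMSO had it under the compound. EIF3F, EEF1G and PABPC4 had N-MYC in 2 or more DMSO libraries and in fewer than 2 compound libraries. The 40 include EEF2, whose summits under the compound, at 1190 and 1187 bases, lay away from its DMSO summits. The median percentile was 70.4 ± 14.4 (SD, n = 3) over the members and 54.9 ± 3.77 over all genes. The spread came mainly from the second compound library, where the members' median was 53.8, against 79.5 and 78.1 in the other two.

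N-MYC percentiles of 5 members were lower under the compound without overlap, and those of 0 were higher. Over all genes, 5.62% were lower and 0% were higher. EIF4G3 stood at 97.7, 87.2 and 96.1 with DMSO and at 48.0 and 11.4 with the compound, with no peak in compound library 2. EIF3F, an EIF3 subunit, stood at 28.0, 69.9 and 80.0 with DMSO and at 23.8 in compound library 3 alone. EIF3D stood at 96.3, 96.6 and 78.4 and then at 73.5 and 54.1, with no peak in library 2. At these 3 promoters every DMSO library was above every compound library. EEF1D, the nucleotide exchange subunit of EEF1, stood at 92.2, 92.7 and 89.7 and then at 77.3, 57.0 and 84.5. EIF4H stood at 99.1, 98.3 and 99.1 and then at 88.8, 94.1 and 97.8. The mean differences were -73.9 percentile points at EIF4G3, -51.3 at EIF3F, -47.9 at EIF3D, -18.6 at EEF1D and -5.26 at EIF4H. The exact permutation test (two-sided, n = 3 against 3) gave p = 0.1 for each, the smallest it can give.

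Without compound library 2, the same 5 members were lower, beside 5.97% of genes, and 1 member, EIF4E2, was higher, beside 2.78%. Leaving out a library cannot undo a call, so these 5 had to stay lower. The median difference of the members was then -0.30 points, against -13.3 with all libraries, and that of all genes -1.87 against -10.3. The median over the members thus rested on that library. Without it the mean differences were -64.0 at EIF4G3, -47.4 at EIF3F and -26.6 at EIF3D, against -73.9, -51.3 and -47.9 with it. Libraries of the same replicate number deviated together (r = 0.590, 0.538 and 0.590 over 2101 genes). Taken as pairs, 16 of 45 members (35.6%) were lower under the compound in all 3 pairs, beside 20.9% of 10109 genes, and 0 were higher in all 3, beside 0.317%. With pairs 1 and 3 alone, a choice made after seeing the data, 17 members were lower in both pairs (37.8%), beside 29.7% of genes, and 6 were higher in both, beside 9.98%.

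Among other strong N-MYC members, the treatments overlapped. EIF5A stood at 98.2, 98.7 and 99.2 with the compound. EEF1B2 stood at 97.7, 85.4 and 97.6, PABPC1 at 99.5, 97.7 and 87.7, and EIF4G1 at 90.6, 37.5 and 97.6. All 4 of these overlapped their DMSO values as groups. Taken as pairs of the same replicate number, EEF1B2 and EIF4G1 were lower under the compound in all 3 pairs, and EIF5A and PABPC1 were not. EEF1G and EEF2, each with N-MYC in 2 of the 3 DMSO libraries, stood at 38.4 in library 3 and at 12.9 and 23.2 in libraries 1 and 3, respectively. Their N-MYC groups also overlapped, but the listed positions differed. The EEF2 summits were at 210 and 132 bases from the TSS with DMSO and at 1190 and 1187 bases with the compound. The EEF1G summits were at 84 and 226 bases with DMSO and at -245 with the compound.

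**Figure D4:**
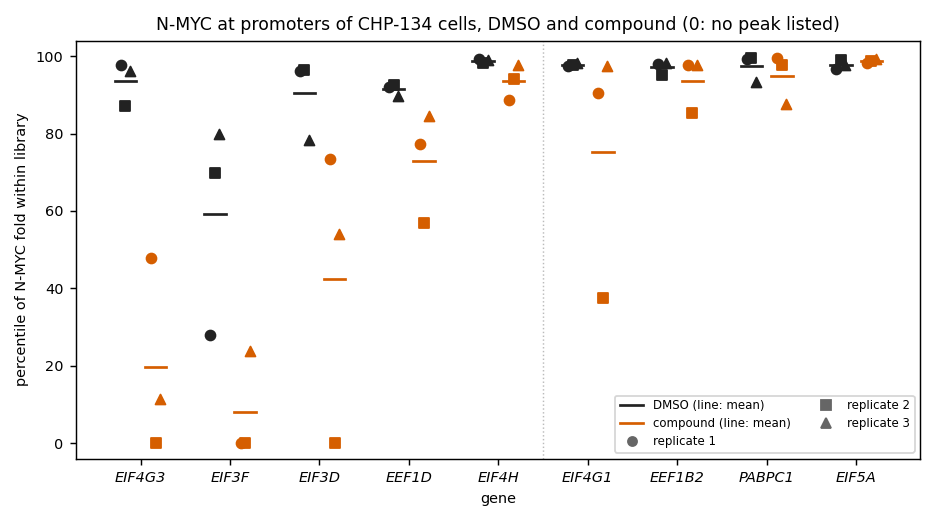
Each marker is the percentile of the N-MYC fold in 1 library, with DMSO in black and the compound in orange, the marker shape giving the replicate number, the horizontal line the mean, and 0 meaning that no peak was listed. Left of the dotted line are the 5 members whose treatments do not overlap, led by EIF4G3 at -73.9 points. Right of it are 4 strong N-MYC members whose treatments overlap.

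WDR5 under the compound was listed in at least 2 libraries at 3 members (EIF4G1, EIF4G3 and EEF2), beside 1.29% of all genes and 2 of the 48 further pathway genes. At EIF4G1 these peaks had other summits than the DMSO peaks. The compound WDR5 lists held 18, 0 and 3 members, and the median percentile over members with a peak was 64.7 ± 21.2 over the 2 libraries that held any. Of the 15 members with WDR5 under DMSO, 10 had a peak in compound library 1, and this share was not counted over all genes. That library held a peak at 36% of all members and 15.7% of all genes. The list of library 1 was longer than any DMSO list, with 5973 peaks. EEF1B2 had a WDR5 peak there and none under DMSO.

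WDR5 percentiles of 7 of 30 members were lower under the compound without overlap (EIF2B1, EIF3M, EIF4A2, EIF4E2, EIF4H, EEF1G and EEF2), and those of 0 were higher. Compound library 2 held no member and counted as 0, so no member could have been called higher. Over all genes, 9.07% were lower and 0.0179% higher. EEF1G stood at 54.0 in compound library 1 and was not listed in the others. EEF2 stood at 4.29 and 82.8 in libraries 1 and 3, and EIF4A2 at 76.6 in library 1. EIF2B1, EIF3M, EIF4E2 and EIF4H had no WDR5 peak in any compound library. EIF4G3 stood at 98.8 and 79.7 and EIF4G1 at 98.9 and 34.9 in libraries 1 and 3, and EIF3D at 98.8 in library 1, so that their groups overlapped. The summits listed for EIF4G1 differed in position: chr3:184032295 and 184032284 with the compound, against 184032648, 184032648 and 184032611 with DMSO. At EIF4A2, compound library 1 listed 2 WDR5 peaks near the TSS. The stronger had its summit at 811 bases (chr3:186502177), against -243, -272 and -244 with DMSO. The DMSO peaks of libraries 2 and 3 (chr3:186500759-186502223 and chr3:186500788-186502210) extended over that position. The exact permutation test (n = 3 against 3) could not go below 0.1 here either. Taken as pairs, 9 members were lower in all 3 pairs, beside 11.1% of genes, and 0 were higher, beside 0.0537%. With compound library 2 at 0, no member could be higher in pair 2, and every member listed in DMSO library 2 was lower there. With pairs 1 and 3 alone, 11 were lower, beside 15.3%, and 0 were higher, beside 2.13%. Whether the WDR5 numbers pair the libraries could not be assessed with a list of 15 peaks.

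The percentile does not show how far the strongest WDR5 peaks stood above the others. At EIF4G3 the fold was 16.8, 7.27 and 12.7 times the list median under DMSO and 1.77 and 1.18 times in compound libraries 1 and 3. At EIF3D it was 15.2, 13.8 and 9.44 times and then 1.77 times. At EEF1G it was 11.3, 11.3 and 13.5 times and then 1.03 times, and at EIF4G1 10.0, 7.16 and 9.13 times and then 1.82 and 0.913 times. EEF2 stood at 8.08, 12.4 and 12.2 times and then at 0.673 and 1.23 times. At all 5 promoters every DMSO value was above every compound value. The same narrowing was seen over the whole lists, whose 99th percentile of fold was 10.7, 13.1 and 13.2 times the median under DMSO and 1.84 and 2.44 times in compound libraries 1 and 3. In IMR-32, EEF1G stood at 42.0 and 21.7 times the median, EEF2 at 36.9 and 33.4 times and EIF3D at 26.0 and 18.9 times, all above their DMSO values. EIF4G3 stood at 19.2 and 12.3 times, which overlapped its DMSO values, and EIF4G1 at 6.54 and 6.62 times, below them. Whether library quality had a part in the narrow compound lists was not tested.

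**Figure D5:**
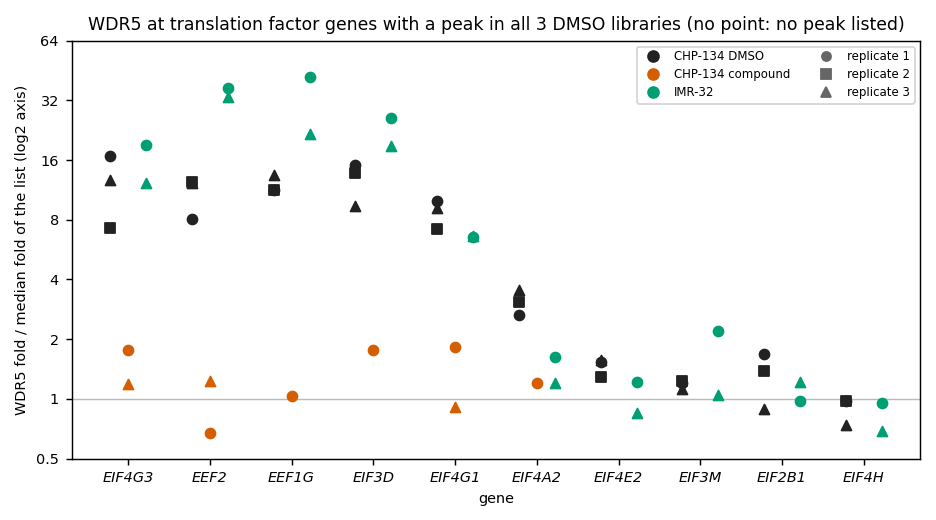
Each marker is the fold of the WDR5 peak of a member divided by the median fold of all peaks of that library, on a log2 axis, for the 10 members with WDR5 in all 3 DMSO libraries, and no marker means that no peak was listed. EIF4G3, EEF2, EEF1G, EIF3D and EIF4G1 lie between 6.54 and 42.0 in the DMSO and IMR-32 libraries, and at 1.82 or less in the compound libraries.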

How the data were processed

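Per the labels and the study's methods, the authors trimmed reads (Cutadapt), aligned them to hg19 (Bowtie2) and called peaks in each library with MACS2 at a q-value of 0.05; versions and the control library are not given in the sources used here. The deposited lists hold positions, a fold over local background (a linear ratio), −log10 p- and q-values, a score and the summit. The fold was used for ranks, the −log10 q-value for choosing summits and for a stricter alternative, and the score was not used. Depth is unknown. The 6 IgG samples were not analysed here.

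TSSs of basic transcripts came from GENCODE 44 on GRCh37. A gene missing from a list took percentile 0 in contrasts. Calls were groups that do not overlap, with exact permutation tests over all assignments of the libraries (numpy 2.4.6). Sequences were read with pysam 0.24.0. Peak assignment, percentiles and calls were tested on simulated lists. Members and lists were chosen with earlier results of these data known. Values per library are given for members with WDR5 in 2 libraries of a line or EIF4G3, the 5 highest in N-MYC, and the largest N-MYC changes under the compound among groups that do not overlap; members without N-MYC are named. Values of some other members are given beside these and were chosen after they were seen. The study's methods call the replicates independent experiments, the labels do not name separate cultures, and p-values measure the spread between these libraries. Replicate numbers of N-MYC with DMSO and with the compound were taken as pairs because same-numbered libraries deviated together (r of 0.538 or more in all 3 pairs).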

Additional observations from a re-analysis of the deposited data

How the results depend on the processing

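The counts of members with a peak changed by less than 1.5 times with a narrower or wider distance from the TSS, with summits in place of peaks within 1 kb, a q-value of 0.01 and a single TSS per gene. With a peak required in every library, 7 members had both proteins under DMSO, 22 had N-MYC under the compound and 0 had WDR5 under the compound. Leaving out each library in turn gave 22 to 40 members with N-MYC under the compound, 0 to 3 with WDR5 under the compound and 7 to 11 with both in IMR-32. For the antibody concerned, a peak was then required in both remaining CHP-134 libraries or in the single remaining IMR-32 library. These ranges therefore mix a changed rule with the library left out.

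For N-MYC, lower members under the compound numbered 5 (5.62% of all genes), 2 with a peak required in every library (6.62%), 16 with the replicate block (20.9%), 17 with the block on pairs 1 and 3 (29.7%), and 5 to 13 with a library left out (5.97% to 18.1%), the most without compound library 3 and then 10 without DMSO library 2. Higher members numbered 0 (0%), then 1 on the log2 scale (2.43%), 6 with the block on pairs 1 and 3 (9.98%), and 0 to 1 with a library left out (0.0911% to 2.78%). Leaving out a library cannot undo a call of groups that do not overlap. Counts of called members with a library left out, here and between the lines, could therefore only stay or rise. For WDR5, lower members numbered 7 (9.07%), then 11 with the block on pairs 1 and 3 (15.3%), and 1 was higher on the log2 scale (21.9%), where a missing peak takes the lowest fold of its list.

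Between the lines, N-MYC was lower in IMR-32 at 15 members (25.3% of genes), 6 with a peak required in every library (25.2%), 5 with equal numbers of the strongest peaks (9.23%), 24 with the replicate block (38.4%), and 16 to 29 with a library left out (28.9% to 43.7%), the most members without IMR-32 library 1. It was higher at 1 (3%), then at 0 (6.70%), 8 (10.9%), 4 (6.76%) and 1 to 8 (3.53% to 13.3%), the most without IMR-32 library 2. WDR5 was lower in IMR-32 at 5 (7.46%), at 18 on the log2 scale (64.7%) and at 5 to 9 with a library left out (8.06% to 18.1%), the most without DMSO library 3. It was higher at 2 (5.16%), at 1 with a peak required in every library (8.24%), at 4 on the log2 scale (9.63%) and at 2 to 7 with a library left out (5.87% to 14.8%), the most members without IMR-32 library 3. On the log2 scale EIF3D and EIF4G3 turned to 0.82 and 0.41. The line numbers did not pair the libraries. The causes were not tested.

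The median N-MYC percentile under DMSO was 81.2 among peaks near TSSs and 79.9 with the summit nearest to a TSS. In IMR-32 it was 74.5 among peaks near TSSs, and WDR5 gave 60.4 there and 61.4 at a q-value of 0.01. With 250 bases on each side of the N-MYC summit, 20 members held an E-box under DMSO (46.5%, beside 34.1% of genes). The WDR5 contrast restricted to genes with a peak in every library gave no value, since no member was left. WDR5 under the compound rests on 1 library of 5973 peaks, 1 of 401 and 1 of 15.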
